A study of Xenopus laevis with 12 samples.

Results

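The epidermal transcription factors described here are 10 regulators of surface ectoderm: tp63, grhl1, grhl2, grhl3, dlx3, dlx5, gata2, gata3, tfap2c and klf5. They were taken by gene name, with the homeolog suffix removed, from the deposited table of 44478 genes of the allotetraploid frog Xenopus laevis. This gave 19 genes, because 9 of the factors are listed with both an .L and an .S homeolog and tfap2c is listed under that name only as .L. Each gene was read in bulk RNA from 3 kinds of living construct made from animal caps, the ectoderm of the animal hemisphere excised from embryos at Nieuwkoop and Faber stage 9. Neurobots (4 libraries, NB1 to NB4) were animal caps into which clumps of dissociated animal cap cells had been placed after hours apart, a treatment that turns such cells toward a neural fate. Sham neurobots (4 libraries, SH1 to SH4) received clumps of cells that were brought back together right after dissociation, and biobots (4 libraries, BB1 to BB4) were animal caps with no implant. All cells were wild type and no drug was given to any group. Every library was a pool of several bots, and the implanted cells of neurobots and shams were pooled from many embryos fertilised earlier than the hosts.

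As background, the ectoderm of a frog blastula becomes epidermis where bone morphogenetic protein (BMP) signalling is active and neural tissue where it is blocked or where the cells are held apart. Tp63 marks and maintains the basal layer of the epidermis, and the grainyhead-like factors Grhl1, Grhl2 and Grhl3 bind the promoters of keratin, junction and barrier genes. Dlx3, Dlx5, Gata2, Gata3 and Tfap2c act early, downstream of BMP, at the border that separates epidermis from neural plate, and Klf5 is a zinc finger factor of dividing basal epithelial cells in mammals.

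The libraries held from 27265034 to 37985824 counts, and single member genes from 42 to 10063 counts per library. The libraries did not keep the strand of the RNA, and nearly identical stretches of an .L and an .S homeolog can exchange reads, so that the split between homeologs is less certain than their sum. NB1 and BB1 were sent for sequencing ahead of the rest and no sham pool went with them, so that submission and bot type can be separated for neurobots and biobots but not for shams. NB1 stood apart from NB2, NB3 and NB4 for many of these genes, and results that rest on it are given with and without it. The mucus gene itln1.L, a marker of epidermal goblet cells, was abundant in all 12 libraries and averaged 9329.7 ± 4202 CPM in neurobots, 13996 ± 2516 CPM in shams and 19289 ± 1411 CPM in biobots (SD, n = 4 libraries each). CPM here are read counts relative to the library total, with TMM scaling over all 12 libraries. Another gene of the goblet cell list, agr2.L, which is also in the cement gland list used below, did not share this order. It averaged 349 ± 108 CPM in neurobots, 120 ± 46.4 CPM in shams and 124 ± 43.5 CPM in biobots. Of 6 tested genes of that list, 1 was called higher and 1 lower in neurobots than in biobots by the test below. Against shams 3 were called higher and 0 lower. Because whole bots were sequenced, fewer cells of a type and less RNA per cell cannot be told apart, and because nothing says how the pools of a group were shared out over clutches, p-values measure only the spread between these pools.

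Each comparison was made on the counts of its 8 libraries by the quasi-likelihood test of edgeR, p-values were adjusted over all genes tested by the Benjamini-Hochberg method, and a gene was called at an adjusted p under 0.05. All 19 genes passed the filter on low counts in each comparison. Between neurobots and biobots, 5 of the 19 were called higher (26.3%, where 19.5% of all 24082 genes tested were) and 3 were called lower (15.8%, against 12.3% of all genes). Both shares were near those of all genes, so these counts do not set the factors apart from other genes. The called genes went both ways: tp63, grhl2 and dlx5.S were higher while grhl1 and grhl3.S were lower. The median log2 fold change was -0.17, against 0.03 over all genes. Without NB1, 8 were called lower, where 18.3% of all genes were. Between neurobots and sham neurobots, 1 of the 19 was called higher (5.26%, against 19.6% of all 24542 genes tested) and 8 were called lower (42.1%, against 13.2% of all genes), with a median log2 fold change of -0.88, against 0.01 over all genes. Between sham neurobots and biobots, 10 of the 19 were called higher (52.6%, against 3.55% of all 22764 genes tested) and 0 were called lower (against 2.19% of all genes), with a median log2 fold change of 0.77. None of the 19 was lower in shams than in biobots at an unadjusted p under 0.05 either (0 genes), and DESeq2 also called 0 lower. The number called higher in shams depended on the fit and on single libraries. It was 4 in a fit of all 12 libraries together, 5 without SH4 or without BB4, 6 without SH1, SH3, BB2 or BB3, 11 without SH2 and 12 without BB1. DESeq2 called 13 higher, and 7 were called with the replicate number as a block. The comparisons share libraries, so the 6 genes that were both lower in neurobots than in shams and higher in shams than in biobots are not independent findings.

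**Figure D1:**
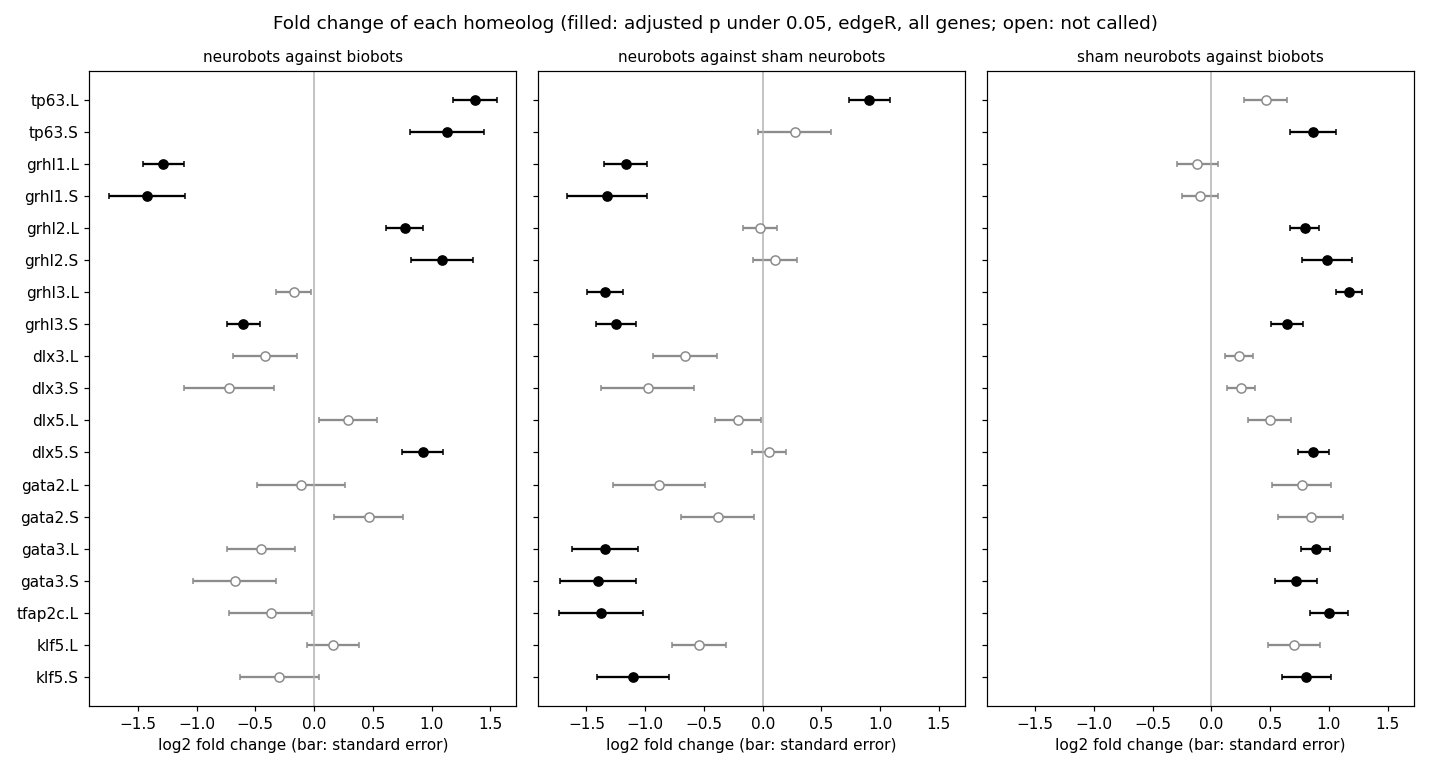
Log2 fold change of each of the 19 homeologs in neurobots against biobots, neurobots against sham neurobots and sham neurobots against biobots (points; bars are standard errors; filled points were called at an adjusted p under 0.05). In the last panel 17 of the 19 points lie right of 0, and in the middle panel 15 of the 19 lie left of it.

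tp63 was the only factor raised in neurobots over both other bot types. In the neurobot libraries NB1 to NB4, tp63.L had 108, 127, 130.0 and 119.9 CPM, against 80.3, 51.5, 59.7 and 66.1 CPM in shams SH1 to SH4 and 63.0, 44.8, 40.1 and 40.4 CPM in biobots BB1 to BB4. Every neurobot library lay above every other library. The log2 fold change was 1.37 ± 0.19 (standard error) against biobots, a 2.59-fold difference (adjusted p = 0.000322), and 0.91 ± 0.18 against shams, a 1.88-fold difference (adjusted p = 0.00321). The gene lies on chromosome 5L of the X. laevis v10.1 assembly (gene ID 373640, 110818110 to 110861292, plus strand).

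The other homeolog, tp63.S (chromosome 5S, 89257441 to 89347165, gene ID 399036), had 25.02, 66.5, 67.0 and 73.3 CPM in neurobots, against 62.9, 42.9, 37.9 and 48.2 CPM in shams and 35.2, 26.3, 23.8 and 21.0 CPM in biobots. NB1 sat among the biobots, whereas NB2 to NB4 were above all other libraries. tp63.S was called higher in neurobots than in biobots (log2 fold change 1.13 ± 0.31, adjusted p = 0.018), a call that was lost with the replicate number as a block (adjusted p = 0.0708), without NB2 (adjusted p = 0.0522) and without BB4 (adjusted p = 0.0547). Without NB1 it was kept, with a larger difference (1.36 ± 0.19, adjusted p = 0.000233). Against shams it was not called with all libraries (0.27 ± 0.31, adjusted p = 0.527) and was called without NB1 (0.51 ± 0.18, adjusted p = 0.0476). In shams tp63.S was 1.82-fold higher than in biobots (log2 fold change 0.86 ± 0.20, adjusted p = 0.0314), while tp63.L was not called (0.46 ± 0.18, adjusted p = 0.146). The tp63.S call was lost when SH1, SH4, BB2, BB3 or BB4 was left out (highest adjusted p 0.0941), in the fit of all libraries together (adjusted p = 0.153) and with homeologs summed (adjusted p = 0.0711), and tp63.L was called without BB1 (adjusted p = 0.0296). With reads of both homeologs summed, tp63 was higher in neurobots than in biobots (log2 fold change 1.29 ± 0.20, adjusted p = 0.000808) and than in shams (0.68 ± 0.20, adjusted p = 0.0245).

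grhl1 went the other way. Grhl1 is known in mice as an activator of desmosomal cadherin genes. grhl1.L (chromosome 5L, 148990667 to 149017317, gene ID 733170) had 86.5, 77.7, 95.3 and 93.3 CPM in neurobots, against 212, 150.4, 237 and 192 CPM in shams and 173, 207, 228 and 255 CPM in biobots. No neurobot library reached the lowest sham or biobot library. grhl1.S (chromosome 5S, 125629006 to 125657836, gene ID 108718241) had 141, 42.2, 61.6 and 63.3 CPM in neurobots, against 222, 159.7, 225 and 164 CPM in shams and 200.2, 193, 203 and 232 CPM in biobots. The groups again did not overlap, although NB1 was close to the lowest shams.

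Against biobots the log2 fold change was -1.28 ± 0.17 for grhl1.L (2.44-fold lower in neurobots, adjusted p = 0.000312) and -1.42 ± 0.32 for grhl1.S (2.68-fold lower, adjusted p = 0.00687). Against shams it was -1.17 ± 0.18 (adjusted p = 0.00099) and -1.33 ± 0.34 (adjusted p = 0.0144) in the same order. Between shams and biobots neither homeolog was called (-0.12 ± 0.17 and -0.10 ± 0.15, adjusted p = 0.707 and 0.735), and both values changed sign with scaling by library size alone (0.05 and 0.08). The 4 calls of grhl1 in neurobots held in every alternative.

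grhl2 was a minor member by level that differed between biobots and both implanted kinds of bot. Grhl2 is known in mammals for keeping epithelial junctions and E-cadherin expression. grhl2.L (chromosome 6L, 141514855 to 141563710, gene ID 108719364) had 18.8, 20.3, 19.8 and 16.9 CPM in neurobots, against 20.8, 19.2, 17.03 and 19.9 CPM in shams and 11.8, 10.5, 12.1 and 10.2 CPM in biobots. grhl2.S (chromosome 6S, 117368207 to 117426310, gene ID 108695405) had 11.1, 17.6, 14.3 and 11.8 CPM in neurobots, against 13.8, 13.6, 12.1 and 11.5 CPM in shams and 3.99, 6.61, 9.05 and 6.28 CPM in biobots. For both homeologs the neurobot and the sham libraries lay above all 4 biobots and overlapped each other.

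Neurobots were above biobots by 0.77 ± 0.16 for grhl2.L and 1.09 ± 0.26 for grhl2.S on the log2 scale (adjusted p = 0.00366 and 0.00983). Shams were above biobots by 0.79 ± 0.12 and 0.98 ± 0.21 (adjusted p = 0.00892 and 0.0272). The sham call of grhl2.S was lost without SH1, SH3, SH4, BB2 or BB4 (adjusted p up to 0.0802) and in the fit of all libraries together (adjusted p = 0.0529), while those of grhl2.L and both neurobot calls held in every alternative. Between neurobots and shams the differences were -0.02 ± 0.15 and 0.10 ± 0.19 (adjusted p = 0.912 and 0.701).

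grhl3 set shams apart. Grhl3 is the member of the family that vertebrate embryos need for epidermal barrier formation and wound closure. grhl3.L (chromosome 2L, 57307243 to 57323355, minus strand, gene ID 496106) had 73.7, 88.9, 75.2 and 69.2 CPM in neurobots, against 189, 193, 192 and 204 CPM in shams and 80.2, 85.1, 95.3 and 87.3 CPM in biobots. The 4 shams lay close together and far above both other groups, which overlapped. grhl3.S (chromosome 2S, 71709700 to 71725146, gene ID 494716) had 115, 114, 107 and 113 CPM in neurobots, against 212, 285, 263 and 304 CPM in shams and 178, 161, 172 and 174 CPM in biobots. Here the 3 groups were in order without overlap, neurobots lowest and shams highest.

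In shams grhl3.L was 2.25-fold and grhl3.S 1.56-fold the level in biobots (log2 fold change 1.17 ± 0.11, adjusted p = 0.00103, and 0.64 ± 0.14, adjusted p = 0.026). The first call held in every alternative, and the second was lost when SH3, SH4, BB2, BB3 or BB4 was left out (highest adjusted p 0.092) and with the replicate block (adjusted p = 0.0539). Neurobots were 2.54-fold lower than shams for grhl3.L (-1.34 ± 0.15, adjusted p = 0.000163) and 2.37-fold lower for grhl3.S (-1.25 ± 0.17, adjusted p = 0.000461). Against biobots only grhl3.S was called in neurobots (-0.60 ± 0.14, adjusted p = 0.00753), whereas grhl3.L differed by -0.17 ± 0.15 (adjusted p = 0.4). Summed over homeologs, grhl3 was lower in neurobots than in biobots by 0.44 ± 0.13 on the log2 scale (log2 fold change -0.44, adjusted p = 0.0291).

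**Figure D2:**
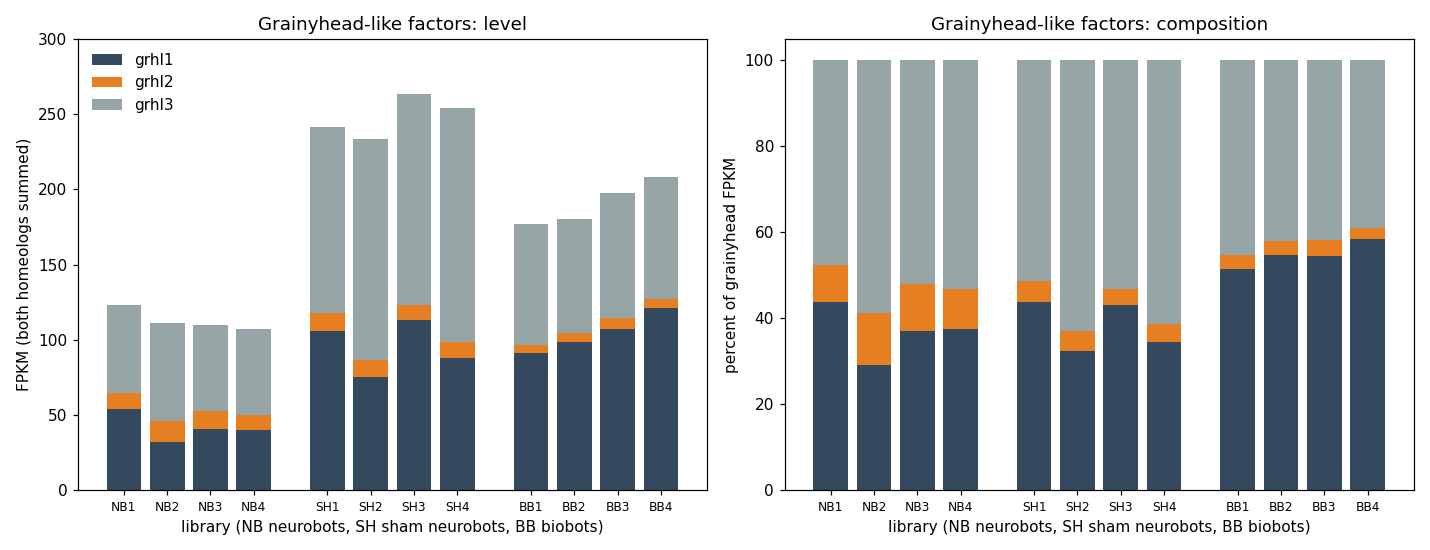
FPKM of grhl1, grhl2 and grhl3, homeologs summed, in each library (NB for neurobots, SH for shams, BB for biobots), stacked on the left and as percent of the family total on the right. The grhl2 share is 8.46% to 12.2% in neurobots, 3.79% to 4.92% in shams and 2.75% to 3.70% in biobots.

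The make-up of the grainyhead family thus differed between the bots. FPKM, fragments per kilobase of gene length in a library scaled to a fixed size, allow levels of different genes to be set side by side. Of the family's summed FPKM, grhl1 held 36.9% ± 6.06 in neurobots, 38.4% ± 5.84 in shams and 54.8% ± 2.79 in biobots (SD, n = 4 each). The share of grhl3 was 52.9% ± 4.54 in neurobots, 57.1% ± 5.76 in shams and 42.0% ± 2.64 in biobots. Each neurobot and sham library lay below all biobots for the grhl1 share and above them for the grhl3 share. The share of grhl2 was 10.2% ± 1.66 in neurobots, 4.44% ± 0.529 in shams and 3.21% ± 0.395 in biobots, and its 3 ranges did not overlap. In an exact two-sided permutation test over the 70 ways of dividing 8 libraries, each of these separations gave p = 0.0286, the smallest this design allows. Over the 36 comparisons of shares made here and for the homeologs, the adjusted value was 0.0735 at best, so none passed the correction.

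dlx3 was lower in the neurobots other than NB1. Dlx3 is a homeobox factor needed in frogs to hold the edge of the neural plate and in mice for hair and skin. dlx3.S (chromosome 9_10S, 4539235 to 4547354, gene ID 394327) had 142, 32.6, 49.0 and 50.1 CPM in neurobots, against 134, 124, 153 and 127 CPM in shams and 113, 123, 110.2 and 109 CPM in biobots. NB1 stood inside the sham range, and the 3 other neurobots were below all shams and biobots. dlx3.L (chromosome 9_10L, 4802984 to 4811225, gene ID 779428) had 75.5, 28.0, 37.4 and 39.4 CPM in neurobots, against 65.5, 68.8, 78.1 and 71.4 CPM in shams and 53.6, 69.7, 61.5 and 56.9 CPM in biobots, with NB1 again apart from the other neurobots.

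With all libraries neither homeolog was called in neurobots, against biobots (dlx3.L -0.42 ± 0.27, adjusted p = 0.271, dlx3.S -0.72 ± 0.38, adjusted p = 0.176) or against shams (-0.66 ± 0.27, adjusted p = 0.0879, and -0.98 ± 0.39, adjusted p = 0.0816). Against shams, however, dlx3.S was called with NB1 included under DESeq2 (adjusted p = 0.0486), library-size scaling (0.0467), the replicate block (0.0384) and the fit of all libraries together (0.0384), and dlx3.L under library-size scaling (0.0485) and the fit of all libraries (0.0468). Against biobots dlx3.S was called with submission as a term (adjusted p = 0.0325). Without NB1 all 4 differences were called: dlx3.L was 1.75-fold and dlx3.S 2.61-fold lower than in biobots (adjusted p = 0.00363 and 0.000185), and 2.05-fold and 3.09-fold lower than in shams (adjusted p = 0.000821 and 0.000162). Shams and biobots differed by 0.24 ± 0.12 for dlx3.L and 0.25 ± 0.12 for dlx3.S (adjusted p = 0.238 and 0.208), although every sham lay above every biobot for dlx3.S.

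dlx5 was not low in neurobots. Dlx5, a homeobox factor of the neural plate border, is also known in the branchial arches and in GABA neurons of the forebrain. dlx5.S (chromosome 6S, 26933539 to 26939186, gene ID 108719909) had 31.0, 30.3, 39.4 and 36.1 CPM in neurobots, against 33.0, 33.7, 33.3 and 31.3 CPM in shams and 14.3, 20.1, 19.9 and 18.1 CPM in biobots. Both implanted kinds of bot lay above all biobots. The difference was 1.90-fold in neurobots (log2 fold change 0.93 ± 0.17, adjusted p = 0.00219) and 1.83-fold in shams (0.87 ± 0.13, adjusted p = 0.00791), and both calls held in every alternative.

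For dlx5.L (chromosome 6L, 33882698 to 33887832, gene ID 399265) the libraries had 63.3, 33.1, 46.7 and 50.9 CPM in neurobots, against 60.9, 54.9, 58.3 and 49.6 CPM in shams and 57.7, 31.8, 33.9 and 35.97 CPM in biobots. NB1 and BB1, the pools of the first submission, were the highest of their groups. dlx5.L was not called in any comparison with all libraries (adjusted p = 0.401, 0.434 and 0.126), and without BB1 it was called higher in shams than in biobots (log2 fold change 0.73, adjusted p = 0.00742). With reads of both homeologs summed, dlx5 was higher than in biobots in neurobots (0.53 ± 0.18, adjusted p = 0.0427) and in shams (0.62 ± 0.13, adjusted p = 0.0242). The list of forebrain GABA neuron markers (8 genes, each with reads in some library) summed to 13.1 to 21.3 CPM in neurobots, 14.2 to 23.7 CPM in shams and 5.61 to 12.5 CPM in biobots. In shams and biobots this sum came mostly from isl1, while slc32a1.S and arx.L, which were picked after their values were seen, reached 3.07 and 3.39 CPM in neurobots and had no read in shams or biobots. Of the rest, gad2.L reached 2.16 CPM in neurobots, 0.491 CPM in shams and 0.373 CPM in biobots, while lhx6.S reached 0.180, 0.890 and 0.480 CPM and lhx6.L 0.487, 0.675 and 0.484 CPM in the same order of groups. Their part in the dlx5 values was not tested.

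gata3 was highest in shams. Gata2 and Gata3 are zinc finger factors of early non-neural ectoderm, and in other tissues of blood cells and of some spinal cord neurons. gata3.L (chromosome 3L, 89492938 to 89512322, gene ID 108711225) had 19.1, 6.63, 9.58 and 12.6 CPM in neurobots, against 29.9, 32.3, 31.0 and 27.8 CPM in shams and 14.1, 15.7, 17.1 and 18.8 CPM in biobots. gata3.S (chromosome 3S, 67640265 to 67659016, gene ID 399445) had 11.002, 3.07, 5.43 and 6.10 CPM in neurobots, against 18.0, 14.3, 17.9 and 17.1 CPM in shams and 8.68, 13.3, 11.2 and 7.83 CPM in biobots. All shams lay above all other libraries, and NB1, alone among neurobots, lay within or above the biobots.

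In neurobots gata3.L was 2.54-fold lower than in shams (log2 fold change -1.34 ± 0.28, adjusted p = 0.00529) and gata3.S 2.64-fold lower (-1.40 ± 0.33, adjusted p = 0.00902). Shams were above biobots by 0.89 ± 0.12 for gata3.L (adjusted p = 0.00614) and by 0.72 ± 0.18 for gata3.S (adjusted p = 0.0401), the second call being lost when SH1, SH3, SH4, BB3 or BB4 was left out (highest adjusted p 0.115) and with the replicate block (adjusted p = 0.0608), and in a fit of all libraries together neither was called (adjusted p = 0.0968 and 0.244). Against biobots the neurobots were not called with all libraries (-0.45 ± 0.29 and -0.68 ± 0.35, adjusted p = 0.26 and 0.167). Without NB1 they were 1.73-fold and 2.13-fold lower (adjusted p = 0.0173 and 0.0106).

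gata2 had the lowest FPKM of the factors and was called in no comparison by the test described above, though some alternatives called it. gata2.L (chromosome 4L, 135466148 to 135485950, gene ID 399273) had 13.2, 3.18, 6.60 and 9.07 CPM in neurobots, against 22.2, 13.2, 10.4 and 12.96 CPM in shams and 8.12, 7.80, 12.04 and 6.80 CPM in biobots. gata2.S (chromosome 4S, 114612038 to 114626197, gene ID 108715041) had 9.93, 4.43, 8.08 and 7.04 CPM in neurobots, against 14.6, 8.05, 6.26 and 9.39 CPM in shams and 5.48, 5.68, 6.86 and 3.43 CPM in biobots. The groups overlapped in every pair, and SH1 was the highest library for both homeologs. The adjusted p ran from 0.0900 (gata2.L, shams against biobots, log2 fold change 0.77 ± 0.25) to 0.847. DESeq2 called both homeologs higher in shams than in biobots (adjusted p = 0.045 and 0.0418). gata2.L was called lower in neurobots than in shams with the replicate block (log2 fold change -0.98, adjusted p = 0.0456) and without NB1 (-1.24 ± 0.37, adjusted p = 0.0234). Markers of the spinal cord and hindbrain neurons that use Gata2 and Gata3 (4 genes) summed to 0.195 to 0.630 CPM in neurobots, 0.104 to 0.522 CPM in shams and 0 to 1.35 CPM in biobots. Of these, tal1 is also in the blood and endothelium list. tal1.S reached 0.0974, 0.522 and 1.11 CPM and tal1.L 0.229, 0.0695 and 0.235 CPM in the same order of groups. sox14.L and sox14.S had at most 9 and 5 reads in a neurobot library and none in shams or biobots. The blood factor genes gata1.L and gata1.S were picked after their values were seen. They stayed at or below 0.360 CPM in neurobots, 0.348 CPM in shams and 0.740 CPM in biobots. The highest value was that of gata1.S in BB3, where tal1.S also had its highest value, 1.11 CPM. Some endothelial genes of the same list were high in at least some neurobot libraries. In neurobots cdh5.L had 0.0974 to 11.1 CPM, pecam1.L 0.130 to 3.91 CPM and lmo2.L 1.35 to 2.91 CPM. In the other bots they had at most 0.0302, 0.264 and 0.0898 CPM in the same order of genes. The homeolog lmo2.S reached 1.56 CPM in neurobots, 0.487 CPM in shams and 2.32 CPM in biobots. For pecam1.S these values were 0.260, 0.0302 and 0.462 CPM. Globin reads were high in 1 biobot library, BB3 (hba3.L up to 174 CPM). The blood and endothelium list (18 genes) summed to 4.87 to 24.7 CPM in neurobots. Its sum was 2.51 to 3.74 CPM in shams and 1.42 to 293 CPM in biobots. BB3 was also the highest biobot library for gata2.L and gata2.S. The part of blood cells in the gata2 values was not tested.

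tfap2c.L (chromosome 9_10L, 13602036 to 13621160, gene ID 108700915) encodes AP-2 gamma, which in frogs acts in the epidermis and the neural crest. It had 111, 29.0, 44.5 and 49.9 CPM in neurobots, against 175, 123, 158 and 150.5 CPM in shams and 93.8, 78.6, 70.7 and 61.1 CPM in biobots. Shams were above all other libraries, NB2 to NB4 were below all biobots, and NB1 was above all biobots. The log2 fold change was -1.38 ± 0.36 in neurobots against shams (2.60-fold lower, adjusted p = 0.0156) and 1.00 ± 0.16 in shams against biobots (2.01-fold higher, adjusted p = 0.0095), the second call being lost in a fit of all libraries together (adjusted p = 0.134). Against biobots neurobots were not called with all libraries (-0.37 ± 0.35, adjusted p = 0.456) and were 1.86-fold lower without NB1 (adjusted p = 0.00755). Of the neural crest list (14 genes), the defining markers foxd3 and sox10, picked after their values were seen, stayed at or below 0.0974 CPM and 1.98 CPM in neurobots and 0.0745 CPM and 0.0348 CPM in the other bots. The homeologs of twist1 and sox8 also stayed low, but sox8 was highest in neurobots. sox8.L had 0.584 to 2.13 CPM in neurobots, 0.121 to 0.583 CPM in shams and 0.0661 to 0.101 CPM in biobots. For sox8.S these ranges were 0.231 to 0.931, 0.0348 to 0.210 and 0 to 0.0745 CPM. twist1.S reached 0.584 CPM in neurobots and 0 CPM in the other bots, while twist1.L reached 0.130, 0.0921 and 0.0565 CPM in the same order of groups. Of 7 tested genes of the list, 3 were called higher (42.9%, against 19.5% of all genes) and 0 lower in neurobots than in biobots. Against shams 2 of 7 were called higher and 1 lower. Some other genes of the list were well expressed. ets1.L averaged 43.5 CPM in neurobots, 85.5 CPM in shams and 32.1 CPM in biobots. It was called higher in shams than in biobots (adjusted p = 0.0022), as tfap2c.L was. snai2.S had 7.47 to 13.9 CPM in neurobots, 1.53 to 2.51 CPM in shams and 3.90 to 6.49 CPM in biobots. Its homeolog snai2.L overlapped between the groups, with 3.12 to 5.94, 2.48 to 3.65 and 2.61 to 5.65 CPM in the same order. sox9.L averaged 29.5, 34.9 and 33.2 CPM and was called in no comparison. The summed list had 89.8 to 132 CPM in neurobots, 135 to 187 CPM in shams and 79.9 to 100.5 CPM in biobots. The part of crest cells in the tfap2c.L values was not tested.

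klf5 was low in all bots. klf5.S (chromosome 2S, 118123778 to 118127886, gene ID 735138) had 1.36, 1.30, 2.67 and 2.204 CPM in neurobots, against 4.70, 3.83, 4.48 and 3.201 CPM in shams and 2.61, 2.18, 1.98 and 2.54 CPM in biobots, so that shams lay above all other libraries. It was 2.15-fold lower in neurobots than in shams (log2 fold change -1.10 ± 0.31, adjusted p = 0.0202) and 1.75-fold higher in shams than in biobots (0.81 ± 0.21, adjusted p = 0.046). The first call was lost without SH1 or SH3, with library-size scaling and with homeologs summed (adjusted p up to 0.0553). The second was lost without any of SH1, SH3, SH4, BB2, BB3 and BB4 (adjusted p up to 0.124), with no filter (0.0689), the replicate block (0.0873), homeologs summed (0.0575) and all libraries in 1 fit (0.161). klf5.L (chromosome 2L, 132778396 to 132796065, gene ID 108708501) had 8.93, 9.35, 12.5 and 12.3 CPM in neurobots, against 18.7, 12.5, 20.1 and 11.6 CPM in shams and 7.94, 13.02, 8.98 and 8.79 CPM in biobots. Its groups overlapped and it was not called (adjusted p = 0.0925 against shams and 0.614 against biobots in neurobots, and 0.0785 in shams against biobots), except that it was called higher in shams than in biobots without SH2 (adjusted p = 0.0436) and by DESeq2 (adjusted p = 0.0374).

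**Figure D3:**
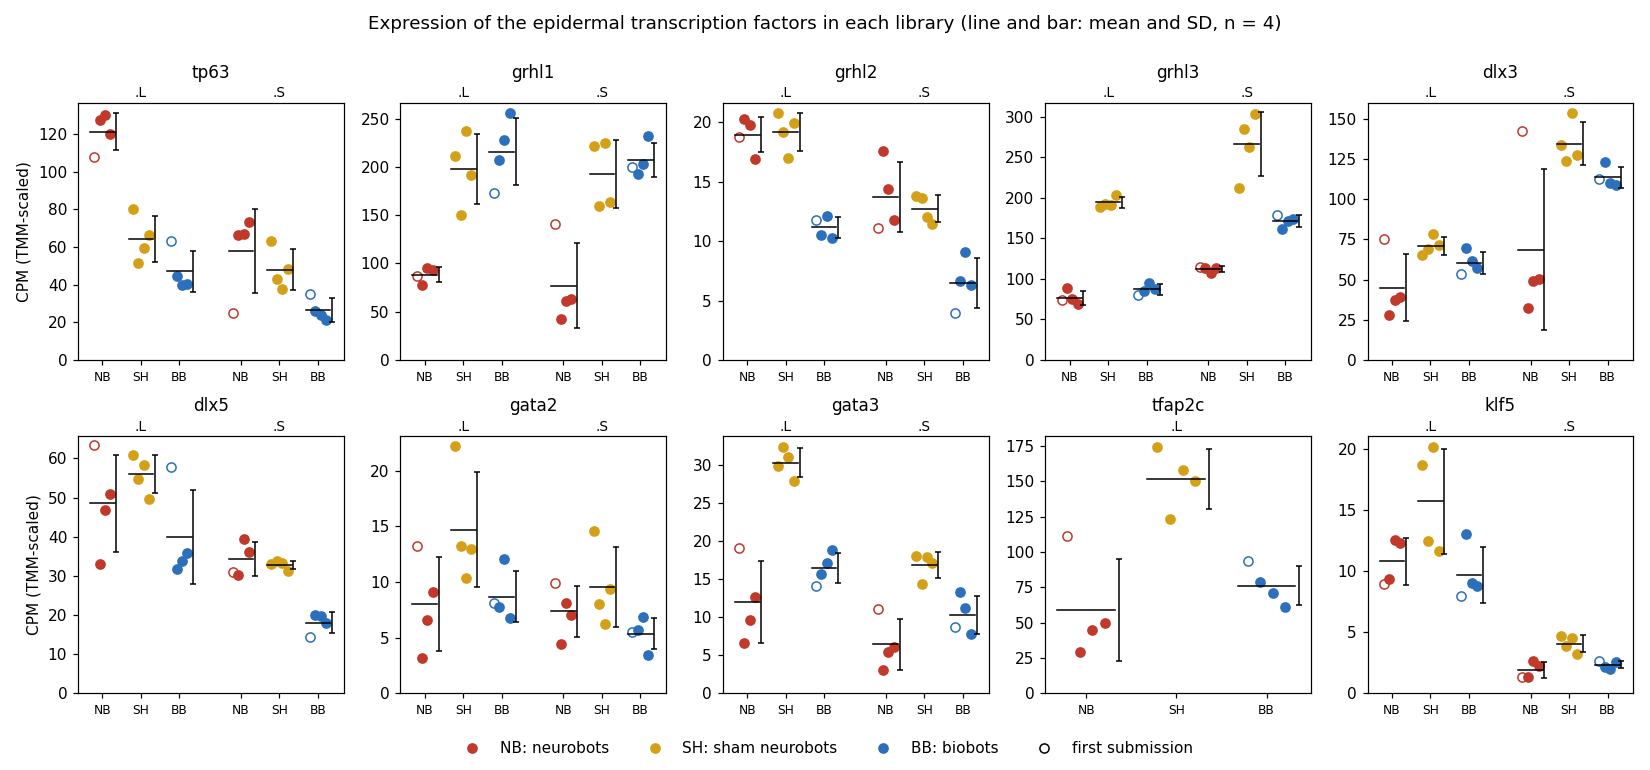
CPM of each homeolog in every library (NB for neurobots, SH for shams, BB for biobots), with the mean as a line and the SD as a bar (n = 4 each) and open symbols for the first submission, NB1 and BB1. NB1 sits far from the other neurobots for tp63.S (25.02 CPM), grhl1.S (141 CPM), dlx3.S (142 CPM) and tfap2c.L (111 CPM).

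NB1 was the highest neurobot library for 10 of the 19 genes and the lowest for 4. Markers of some other cell types also set it apart from NB2, NB3 and NB4, and those of others did not. The summed neuronal markers had 654 CPM in NB1, 1002 CPM in NB2, 697 CPM in NB3 and 724 CPM in NB4. In the same order of libraries, small secretory cell markers had 13.3, 13.1, 8.86 and 11.3 CPM. Multiciliated cell markers had 664, 689, 516 and 521 CPM. The summed markers of neural progenitors (18 genes) had 176 CPM in NB1 and 438 to 491 CPM in NB2 to NB4, against 3.02 to 4.23 CPM in shams and 1.82 to 3.87 CPM in biobots. The summed markers of ionocytes (13 genes), the acid and ion transporting cells of frog skin, had 939.9 CPM in NB1 and 221 to 347 CPM in NB2 to NB4, against 1060 to 1565 CPM in shams and 1636 to 1976 CPM in biobots. Their part in the values of the transcription factors was not tested, and since NB1 was also the only neurobot pool of the first submission, these cannot be told apart.

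**Figure D4:**
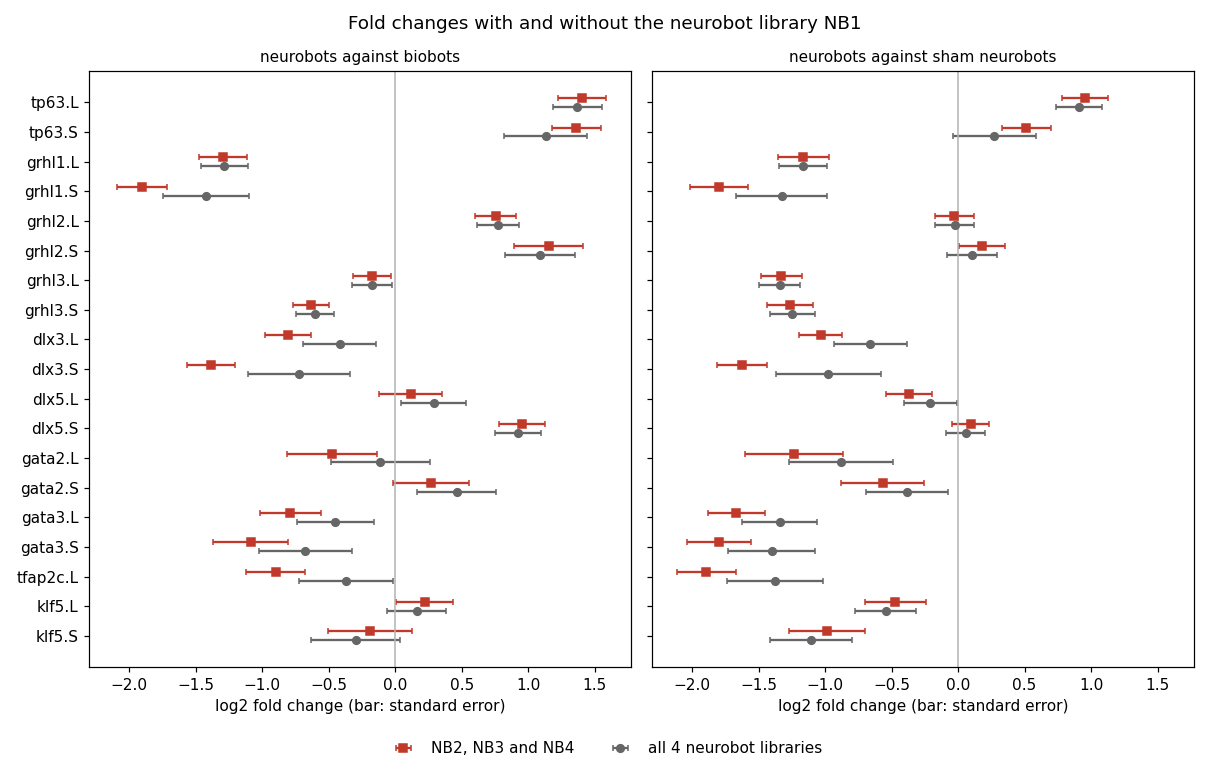
Log2 fold changes of the 19 genes in neurobots against biobots (left) and against sham neurobots (right), fitted without NB1 (squares) and with all 4 neurobot libraries (circles), with standard errors as bars. dlx3.S moves to -1.38 from -0.72 on the left and to -1.63 from -0.98 on the right when NB1 is left out, while grhl3.L and grhl3.S stay in place.

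Without NB1, 5 of the 19 genes were called higher and 8 lower in neurobots than in biobots (25.2% and 18.3% of all genes tested in that fit), and 2 were called higher and 11 lower than in shams (24.4% and 18.6% of all genes). The additions against biobots were dlx3.L, dlx3.S, gata3.L, gata3.S and tfap2c.L, all lower. Against shams they were tp63.S, which was higher, and dlx3.L, dlx3.S and gata2.L, which were lower. grhl1.S, already called, reached 3.75-fold lower than in biobots and 3.48-fold lower than in shams. Calls of tp63.L, tp63.S, grhl1.L, grhl2.L, grhl2.S, grhl3.S and dlx5.S against biobots were made with and without NB1.

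Set side by side in FPKM with homeologs summed, the factors spanned more than a decade of expression. In neurobots the order of the means was dlx5 (61.5 ± 9.56 FPKM), grhl3 (59.5 ± 3.91), dlx3 (58.5 ± 35.7), grhl1 (41.8 ± 9.07), tp63 (36.3 ± 8.09), tfap2c (18.1 ± 11.1), grhl2 (11.5 ± 1.61), gata3 (6.66 ± 3.09), klf5 (4.29 ± 0.879) and gata2 (3.90 ± 1.57), and the ranges of all neighbours in this order overlapped. In shams it was grhl3 (142 ± 13.3 FPKM), dlx3 (103 ± 8.76), grhl1 (95.6 ± 17.2), dlx5 (64.8 ± 4.35), tfap2c (45.9 ± 6.55), tp63 (23.8 ± 4.94), gata3 (16.7 ± 0.642), grhl2 (10.97 ± 0.811), klf5 (6.72 ± 1.63) and gata2 (5.99 ± 2.16), where dlx3 and grhl1, and klf5 and gata2, overlapped. In biobots it was grhl1 (105 ± 12.96 FPKM), dlx3 (88.1 ± 6.25), grhl3 (79.9 ± 2.89), dlx5 (43.0 ± 7.53), tfap2c (23.3 ± 4.26), tp63 (15.1 ± 3.50), gata3 (9.55 ± 0.970), grhl2 (6.11 ± 0.822), klf5 (4.10 ± 0.635) and gata2 (3.49 ± 0.893), with overlap between grhl1 and dlx3, tfap2c and tp63, and klf5 and gata2.

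Thus grhl1 stood behind dlx5, grhl3 and dlx3 in neurobots and behind grhl3 and dlx3 in shams, and led in biobots, while dlx5 led in neurobots and stood behind grhl1, dlx3 and grhl3 in the other bots. Without NB1 the neurobot means were 59.8 FPKM for grhl3, 58.6 for dlx5, 40.9 for dlx3, 40.4 for tp63 and 37.7 for grhl1, so that grhl3 led and tp63 stood above grhl1. klf5 and gata2 were the lowest in all 3 bot types. These ranks describe means of 4 libraries and were not tested, and the value of tfap2c covers 1 homeolog only.

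**Figure D5:**
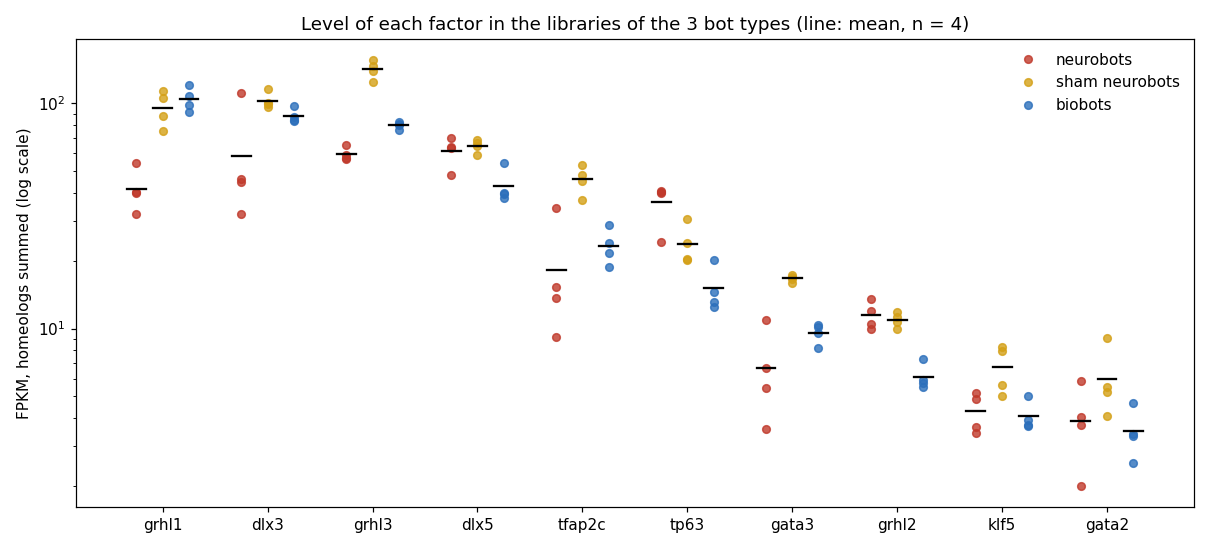
FPKM of each factor, homeologs summed, on a log scale, in the libraries of neurobots, sham neurobots and biobots (points, with the mean of 4 as a line), ordered by the biobot mean. grhl1 falls to 41.8 FPKM in neurobots, against 95.6 FPKM in shams and 105 FPKM in biobots, and tp63 is at 36.3, 23.8 and 15.1 FPKM in the same order of groups.

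The balance of homeologs differed between groups for some pairs. Of the summed FPKM of each pair, the .L homeolog held most of klf5 (79.5% ± 3.07 in neurobots, 71.4% ± 2.76 in shams and 72.7% ± 5.80 in biobots) and less than the .S homeolog of grhl3 (41.5% ± 2.62, 43.4% ± 3.27 and 34.5% ± 2.01 in the same order of groups), all biobots lying below all other libraries for grhl3. The .L share of gata2 was 47.8% ± 7.77 in neurobots, below every sham and biobot library, whose means were 58.6% ± 2.09 and 59.8% ± 3.95. For tp63 the .L share was 53.9% ± 10.4 in neurobots, 41.4% ± 2.83 in shams and 48.1% ± 1.497 in biobots, with 69.3% in NB1, while NB2 to NB4 had 46.1% to 50.4%, and all shams lay below all other libraries. NB1 stood apart in the .L share of grhl1 as well, with 46.9% against 67.9% to 72.6% in the other neurobots. Each of these full separations gave the smallest p that 4 against 4 libraries allow, 0.0286 in the exact permutation test, and none passed adjustment over the 36 comparisons (0.0735), so that the test cannot say whether the other shares were equal.

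Over the 12 libraries, which fall into 3 groups, Pearson's r of log2(FPKM + 1) describes which of the genes varied together, with no test. The homeologs dlx3.L and dlx3.S had r = 0.98 and gata3.L and gata3.S r = 0.93. gata3.S and tfap2c.L had r = 0.95, dlx3.S and grhl1.S r = 0.93, and grhl2.S and dlx5.S r = 0.91. tp63.L and grhl1.L ran opposite, with r = -0.89. All these values mix the difference between groups with that between pools of a group, NB1 above all.

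By the same measure, among 14860 named genes with a mean of at least 1 FPKM, those most like tp63.L were aplp2.L (r = 0.98), an amyloid precursor relative, with thbs3.L and sema6d.L. Those most like tp63.S were cd99l2.S, itga2.L and noa1.L (up to r = 0.96), itga2 being a collagen-binding integrin chain. Among those most like grhl1.L were itpka.S and ap1g2.S (up to r = 0.98), and grhl1.S was most like ada2.S, capn13.L and XB5900382.L (up to r = 0.98). For grhl2 they were jund.S, a subunit of AP-1, arl5c.S and fam83a.L (grhl2.L, up to r = 0.95), and chac1.L, irx2.L and znf248.L (grhl2.S, up to r = 0.95).

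grhl3.S was most like tirap.L (r = 0.98), an adaptor of Toll-like receptors, thnsl1.L and dnajb6.S, and grhl3.L most like sertad1.S (r = 0.96), ptger4.L and nlrc4.L. dlx3.S was most like the serine protease gene tmprss2.4.L (r = 0.98), eif4e3.L and the adhesion gene nectin4.S, and dlx3.L most like dcun1d2.L (r = 0.96), fbxw7.L and tmprss2.4.L. dlx5.S was most like znf385a.L (r = 0.96), pomgnt1.S and rogdi.S, and dlx5.L most like the Notch ligand gene dll1.S (r = 0.91), ankrd35.S and the BMP receptor gene acvr1.L. sp7.S was among the closest to both gata3.L and gata3.S (r = 0.96 and 0.97), beside ppp1r3c.2.L, anxa11.L, fbxw7.L and ubac1.L. Among those most like tfap2c.L were the BMP-responsive homeobox gene msx2.L (r = 0.97) and hand2.S (r = 0.96). For gata2 they included trarg1.S and ckm.L (gata2.L, up to r = 0.94), and creb3l2.S, ckm.L and sdc1.L (gata2.S, up to r = 0.90), and for klf5 fam43a.L, tfap2a.S and zswim9.L (klf5.L, up to r = 0.87), and dgke.S, trim37.L and cul5.S (klf5.S, up to r = 0.97).

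Relatives from the same factor families gave both directions in neurobots. Of 41 tested genes 7 were called higher (17.1%, where 19.5% of all genes were) and 8 lower (19.5%, against 12.3%) than in biobots, of 42 tested against shams 6 were higher and 12 lower, and in shams 7 of 42 were higher than in biobots (median log2 fold change 0.28). Against biobots 11 were higher without NB1 and 5 lower without BB4, and the sham count was 4 without SH4, BB2 or BB4. Of 5 tested genes related to grainyhead factors, 4 were lower in neurobots than in both other bots and tfcp2.L was not called. tfcp2l1.L averaged 32.8 ± 22.5 CPM in neurobots, 132 ± 18.4 CPM in shams and 115 ± 7.95 CPM in biobots (log2 fold change against biobots -1.81 ± 0.40, adjusted p = 0.0056), and tfcp2l1.S, ubp1.L and ubp1.S had log2 fold changes from -2.85 to -1.35 against biobots. klf3.L, klf3.S, klf15.S and the epidermal homeobox gene dlx4.S were also lower in neurobots than in both other bots. Of 6 tested AP-2 relatives, 3 were called higher in neurobots against shams as well as against biobots, and tfap2a.L, tfap2a.S and tfap2b.S in neither comparison. tfap2e.S had 11.5 ± 0.713 CPM in neurobots, 1.84 ± 1.018 CPM in shams and 0.209 ± 0.135 CPM in biobots (log2 fold change against shams 2.64 ± 0.37, adjusted p = 0.000541), and the others were tfap2e.L and tfap2b.L. dlx6.S, the neighbour of dlx5 in vertebrate genomes, had 20.5 ± 4.67 CPM in neurobots, 7.20 ± 1.24 CPM in shams and 4.83 ± 0.951 CPM in biobots (log2 fold change against biobots 2.09 ± 0.23, adjusted p = 9.59e-05). dlx6.L and tp73.L were called higher in neurobots than in biobots as well (1.58 ± 0.42 and 0.79 ± 0.24).

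Among 17 other epidermal regulators, 2 were called higher (11.8%) and 4 lower (23.5%) in neurobots than in biobots (10 lower without NB1), 1 higher and 7 lower of 16 tested against shams (4 lower without NB3 or without SH4), and 1 of 17, prdm1.L, higher in shams than in biobots (0 without SH4 and 3 without BB1). The count higher than in biobots was 1 without any of NB2, NB3, NB4, BB1, BB2 and BB3. elf3.L, an ETS factor of epithelia, averaged 21.5 ± 2.81 CPM in neurobots, 47.2 ± 6.30 CPM in shams and 65.8 ± 15.6 CPM in biobots (log2 fold change against biobots -1.61 ± 0.20, adjusted p = 0.000226). znf750.S, a regulator of late epidermal differentiation, had 27.5 ± 3.94, 63.9 ± 4.95 and 51.5 ± 2.28 CPM in the same order (against shams -1.22 ± 0.16, adjusted p = 0.000302). foxi2.S had 8.73 ± 5.05 CPM in neurobots, 0.491 ± 0.0582 CPM in shams and 0.395 ± 0.390 CPM in biobots.

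The BMP pathway list held ligands, effectors and targets together with inhibitors such as chrd and nog. Its counts therefore give no direction of signalling. In this list, 9 of 26 tested genes were called higher (34.6%) and 2 lower (7.69%) in neurobots than in biobots, 8 of 26 higher and 8 lower than in shams, and 6 of 21 higher in shams than in biobots. The lower pair against biobots were id2.L and id2.S, direct targets of BMP signalling, of which 0 were called without NB2, NB3, NB4 or BB3, 1 without BB2 or BB4, and 4 genes of the list without NB1. id2.L had 52.7 ± 25.2 CPM in neurobots, 154 ± 22.6 CPM in shams and 107 ± 17.2 CPM in biobots (against shams -1.55 ± 0.29, adjusted p = 0.00281), and neither id2 homeolog was called between shams and biobots (adjusted p = 0.0625 and 0.0577). ventx2.2.L, another known target, went the other way, with 16.4 ± 8.41 CPM in neurobots, 0.219 ± 0.174 CPM in shams and 0.0928 ± 0.0659 CPM in biobots.

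Junction, adhesion and barrier genes, among them known targets of grainyhead factors, gave 10 higher (25%) and 14 lower (35%) of 40 in neurobots against biobots, 8 higher and 11 lower of 40 against shams, and 2 higher and 1 lower of 40 in shams against biobots. The count lower than in shams was 4 to 6 when NB2, NB3, NB4, SH1, SH3 or SH4 was left out, and the sham counts against biobots ran from 0 to 4 higher and from 1 to 3 lower over the libraries left out, with 4 and 3 without BB1 or without SH2. dsc3.L, a desmosomal cadherin gene, had 74.0 ± 20.1 CPM in neurobots, 189.5 ± 35.3 CPM in shams and 188 ± 55.2 CPM in biobots (against biobots -1.34 ± 0.26, adjusted p = 0.00282). The barrier protease gene prss8.S had 57.4 ± 32.5, 117 ± 22.3 and 166 ± 12.5 CPM in the same order (against biobots -1.53 ± 0.31, adjusted p = 0.00382). col17a1.L, a hemidesmosome gene of basal cells, was high in neurobots, with 29.6 ± 13.6 CPM, against 6.09 ± 3.39 CPM in shams and 1.80 ± 1.40 CPM in biobots (against shams 2.28 ± 0.48, adjusted p = 0.00563).

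Keratins gave 7 higher (24.1%) and 2 lower (6.90%) of 29 in neurobots against biobots, 10 higher and 4 lower of 31 against shams, and 1 higher of 31 in shams against biobots. Without NB1, 9 were lower than in biobots and 7 lower than in shams, and the sham count was 4 without BB1 and 0 without SH1, SH3, SH4, BB2 or BB4. The simple epithelial keratin gene krt19.S had 469.6 ± 253 CPM in neurobots, 3.14 ± 0.749 CPM in shams and 2.99 ± 0.959 CPM in biobots, whereas krt222.S and krt8.2.S were lower in neurobots than in biobots (-1.19 ± 0.16 and -0.94 ± 0.23, adjusted p = 0.000331 and 0.01). Over all keratins the summed level was 30302 to 70608 CPM in neurobots, 37272 to 49916 CPM in shams and 44179 to 64740 CPM in biobots, and these ranges overlapped.

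Markers of other cell types stood beside these values in neurobots. Of the neuronal list 18 of 19 tested genes were called higher than in biobots and of the neural progenitor list 17 of 17. The summed neuronal markers had 654 to 1002 CPM in neurobots, 142 to 149 CPM in shams and 163 to 169.9 CPM in biobots. In shams and biobots this sum was mostly syt1.L, the 1 tested gene called lower in neurobots than in biobots (adjusted p = 0.000886). It averaged 83.2, 125 and 152 CPM in neurobots, shams and biobots. The neuronal tubulin gene tubb2b.S averaged 221, 1.11 and 0.297 CPM in the same order of groups. Cement gland markers, a mucus organ at the front of the neural plate, rose in 7 of 8 tested genes (458 to 1953 CPM in neurobots, 219.9 to 374 CPM in shams and 275 to 364 CPM in biobots). agr2.L and agr2.S of this list are in the goblet cell list as well. They averaged 349 and 190 CPM in neurobots, 120 and 99.9 CPM in shams and 124 and 149 CPM in biobots. In neurobots 10 of 13 ionocyte genes and 3 of 4 small secretory cell genes were lower than in biobots. Of the ionocyte genes 1 was called higher, and of the small secretory cell genes 0. The ionocyte gene slc4a4.S had 23.6 to 30.8 CPM in neurobots, 4.01 to 5.80 CPM in shams and 3.19 to 9.91 CPM in biobots. Whether the transcription factors differ through the share of these cell types was not tested.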

How the data were processed

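Poly(A) RNA of 12 pools of whole bots was sequenced from non-directional libraries, 4 each of neurobots, sham neurobots and biobots, grouped by the submitters' labels. The authors removed low-quality reads, aligned the rest to the X. laevis v10.1 genome with HISAT2 2.0.5, assembled them with StringTie 1.3.3b and deposited a count of reads per gene from featureCounts 1.5.0-p3, without normalization. They also deposited FPKM, computed from these counts and gene length. Per the study's methods, neurobot pools held more bots than sham pools and than the biobot pools BB2, BB3 and BB4, while BB1 held the most. The authors used DESeq2 1.20.0 for their own tests, which were not used here.

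From the deposited counts, each pair of groups was tested in R 4.3.3 with edgeR 4.0.16 (TMM, filterByExpr with minimum count 10 and minimum total 15, estimateDisp, robust glmQLFit, glmQLFTest) over all genes, with Benjamini-Hochberg adjustment. The test was tested on simulated data, where it recovered most genes with a log2 change of 2 and too few with 2-fold changes, so that a gene not called may still differ by that much. A standard error is the log2 fold change divided by the square root of F. Shares were computed from FPKM and compared by exact permutation. DESeq2 1.42.0, other scalings, no filter, a replicate block, summed homeologs, a fit of all 12 libraries, a submission term and leaving out each library were alternatives. Libraries held 27265034 to 37985824 counts. Named genes are every member, the 3 genes most like each, and in each list those with the most extreme called log2 fold changes against biobots (for relatives all called genes, for markers the most abundant). A few genes that this rule names are not reported here. Members and lists were chosen with earlier results of these data known. Sequences are not used here.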

Additional observations from a re-analysis of the deposited data

Results flagged for a closer look

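Among 57 groups of 4 libraries (19 genes in 3 bot types), 4 held a library far from the other 3 by Dixon's ratio at its 95% critical value. Chance alone gives about 5% of such groups. tp63.S had 25.02 CPM in NB1, against 66.5 to 73.3 CPM in the other neurobots (ratio 0.860). dlx3.S had 142 CPM in NB1, against 32.6 to 50.1 CPM in the other neurobots (ratio 0.841). dlx5.L had 57.7 CPM in BB1, against 31.8 to 35.97 CPM in the other biobots (ratio 0.840). grhl3.S had 107 CPM in NB3, against 113 to 115 CPM in the other neurobots (ratio 0.834), a small gap among close values. NB1 and BB1 are the pools of the first submission, and whether that or another property of these pools goes with the values was not tested.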

How the results depend on the processing

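Of 57 fold changes of single genes, 32 kept their call in every alternative, and over 931 values 848 kept it, 45 lost it, 38 gained it and 0 reversed (12 values that were not called changed sign). The summed value of a homeolog pair entered these counts for both genes of the pair. Against biobots 7 of 8 calls in neurobots held in every alternative, against shams 8 of 9, and in shams against biobots 3 of 10 (grhl2.L, grhl3.L and dlx5.S). The number of genes lower in neurobots than in biobots, 3, was 8 without the first submission and ran from 3 to 8 with single libraries left out. The number higher in neurobots than in shams, 1, was 2 without the first submission and ran from 1 to 2 with single libraries left out. With homeologs summed, 1 factor, tp63, was higher. The number higher in shams than in biobots, 10, was 4 with all libraries in 1 fit and 13 under DESeq2, and ran from 5 to 12 with single libraries left out. The cause was not tested. Scaling by library size alone moved the median of all genes to 0.13 in neurobots against biobots and to 0.16 in shams against biobots. With the replicate block, 4 genes were higher and 3 lower in neurobots than in biobots, 1 and 10 against shams, and 7 and 0 in shams against biobots. Deviations of same-numbered libraries had r from -0.37 to 0.45 and were not all above 0.1 in any comparison. NB1 and BB1, which were submitted together, had r = 0.03, so this check cannot show whether the numbers pair the samples. Of 490 list counts under alternatives, 101 moved by over 1.5 times. klf5.S had the fewest reads, 42 to 153 counts per library.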

Other observations

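A gene on chromosome 9_10S (12302432 to 12322084) is listed only as LOC108702612 and described in the deposited annotation as transcription factor AP-2 gamma. It was not among the 19 genes because its name does not match the rule. It was named after its values were seen. Its FPKM were 33.5, 19.9, 24.9 and 23.1 in NB1 to NB4, against 64.6, 41.0, 44.1 and 41.2 in SH1 to SH4 and 25.2, 34.7, 30.5 and 26.7 in BB1 to BB4. All shams lay above all other libraries, as for tfap2c.L, and NB1 was again the highest neurobot. By edgeR's quasi-likelihood test its log2 fold change was -0.95 ± 0.22 in neurobots against shams (adjusted p = 0.00851), -0.22 ± 0.20 in neurobots against biobots (adjusted p = 0.416) and 0.73 ± 0.17 in shams against biobots (adjusted p = 0.0373).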
